A study of Homo sapiens with 54 samples.

Results

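The matrix metalloproteinases and their inhibitors were followed through the series by 10 genes, the metalloproteinases MMP1, MMP2, MMP3, MMP7, MMP9, MMP10, MMP13 and MMP14 and the tissue inhibitors of metalloproteinases TIMP1 and TIMP2. They are 10 of the 18417 genes measured. Each was read from the array row whose annotation gave that symbol alone, and where a symbol had several such rows the one with the highest mean was to be used. All 10 had exactly 1 such row, so that choice decided nothing. The family was chosen by measured values of these data, namely the far higher MMP1 level with smoke extract alone at 24 h. Values of that comparison are therefore given below as a description with no test.

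RNA was measured on 54 one-colour Affymetrix arrays in NCI-H460, a human cell line from a large cell carcinoma of the lung. The cells were held in medium without serum and pretreated with cigarette smoke extract (at 5 uM nicotine equivalent), with 5 uM nicotine, or with neither. After 2 h each pretreatment was followed by 6 Gy of ionizing radiation, by 1 uM cisplatin, or by neither, and the cells were harvested 2 h or 24 h later. This gave 18 groups of 3 arrays, all from the same cell line and all without serum. At each time they were radiation with smoke extract, with nicotine and alone, cisplatin with smoke extract, with nicotine and alone, smoke extract alone, nicotine alone, and untreated cells. The labels call the 3 samples of a group biological replicates, and all treatments were run side by side. No source used here says which plate held which culture, so p-values measure the spread between cultures of 1 line in 1 experiment. Keratin markers of epithelial cells were high (KRT8 averaged 11.96, KRT19 11.54 and KRT18 11.26 on the deposited log2 scale), while EPCAM and CDH1 averaged 5.28 and 5.07.

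Matrix metalloproteinases are zinc-dependent proteases that cut collagens, other matrix proteins and many proteins at the cell surface. Most are secreted as inactive precursors and become active when a propeptide is removed, and the TIMPs block active enzymes by binding their catalytic site. In lung tissue the family is known for matrix turnover and for its part in emphysema and in tumour invasion. MMP1 and MMP13 are collagenases, which cut fibrillar collagen. MMP2 and MMP9 are gelatinases, MMP3 and MMP10 stromelysins, MMP7 is matrilysin, and MMP14 is anchored in the cell membrane, where it activates the MMP2 precursor with the help of TIMP2.

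Of the 10 genes, 5 (MMP1, MMP3, MMP7, MMP10 and MMP13) lie in a cluster on chromosome 11. In the gene list used here, 9 protein-coding genes follow each other there in the order MMP7, MMP20, MMP27, MMP8, MMP10, MMP1, MMP3, MMP12 and MMP13. Promoters of 4 of the 10 genes matched the reference table of RefSeq promoters (GRCh38.p14). The 250 bases before the start of 3 of them are shown 5′ to 3′ on the gene's own strand. MMP7 and MMP10 are shown because they lie in the cluster with MMP1 and did not pass any test, a choice made after their values were seen. TIMP1 is shown because it passed a test. Capitals mark matches to 3 motifs searched on both strands: the AP-1 site TGANTCA, the core GCGTG of the xenobiotic response element, and the TATA box TATAAA.
MMP7, chr11:102530748-102530997, minus strand: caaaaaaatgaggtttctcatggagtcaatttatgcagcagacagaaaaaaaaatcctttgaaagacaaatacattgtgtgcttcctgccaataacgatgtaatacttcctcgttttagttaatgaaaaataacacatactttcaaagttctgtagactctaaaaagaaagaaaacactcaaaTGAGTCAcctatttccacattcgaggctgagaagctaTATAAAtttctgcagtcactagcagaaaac
MMP10, chr11:102780629-102780878, minus strand: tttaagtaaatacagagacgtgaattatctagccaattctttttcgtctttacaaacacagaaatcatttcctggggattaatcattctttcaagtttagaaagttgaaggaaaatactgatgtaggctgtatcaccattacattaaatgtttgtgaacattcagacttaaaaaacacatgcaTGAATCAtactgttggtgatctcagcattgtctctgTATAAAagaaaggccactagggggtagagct
TIMP1, chrX:47582186-47582435, plus strand: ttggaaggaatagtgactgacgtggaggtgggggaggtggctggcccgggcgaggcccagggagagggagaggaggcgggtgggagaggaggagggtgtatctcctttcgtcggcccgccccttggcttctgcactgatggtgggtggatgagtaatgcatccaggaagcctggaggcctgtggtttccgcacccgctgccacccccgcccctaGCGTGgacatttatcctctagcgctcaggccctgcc

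The MMP7 window held the AP-1 letters TGAGTCA at positions -67 to -61 from the start and TATAAA at -30 to -25. The MMP10 window held TGAATCA at the same positions, -67 to -61, and TATAAA at -31 to -26. The TIMP1 window held GCGTG at -36 to -32 and neither of the other motifs, and the MMP14 window held none of the 3. Among all 35114 promoter windows of this length, 6.57% held TGANTCA, 32.2% held GCGTG and 10.7% held TATAAA.

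MMP1 was higher with smoke extract in every therapy arm and at both times, and none of the tested comparisons of nicotine, radiation or cisplatin with its control called it. At 2 h its log2 values were 8.28, 7.96 and 8.25 with radiation and smoke extract, against 7.29, 7.25 and 6.89 with radiation alone. They were 8.47, 8.40 and 8.05 with cisplatin and smoke extract, against 6.86, 6.67 and 7.02 with cisplatin alone. Smoke extract without therapy gave 8.21, 8.13 and 8.33, against 6.96, 7.05 and 7.00 in untreated cells. In each of the 3 pairs all arrays with smoke extract lay above all arrays without it.

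The rise at 2 h passed the test in all 3 arms. MMP1 rose by 1.02 ± 0.13 in irradiated cells (log2 change ± SE, 2.03-fold, limma adjusted p = 8.12e-08) and by 1.46 ± 0.13 in cisplatin-treated cells (2.75-fold, adjusted p = 4.00e-12). Without therapy it rose by 1.22 ± 0.13 (2.33-fold, adjusted p = 9.18e-10). These were the 40th, the 14th and the 20th largest rises among 18417 genes. In bulk RNA, more RNA per cell and more cells that carry it cannot be told apart. MMP1 was the only 1 of the 10 genes called in each comparison, where 2.66%, 5.46% and 3.77% of all genes were called at an adjusted p under 0.05.

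At 24 h the separation was wider. MMP1 stood at 10.64, 10.52 and 10.85 with radiation and smoke extract, against 5.87, 6.15 and 6.10 with radiation alone. It stood at 10.20, 10.38 and 10.45 with cisplatin and smoke extract, against 5.97, 6.02 and 6.27 with cisplatin alone. In both arms every array with smoke extract lay far above every array without it. The rises were 4.63 ± 0.13 in irradiated cells (24.7-fold, adjusted p = 1.07e-30) and 4.25 ± 0.13 in cisplatin-treated cells (19.1-fold, adjusted p = 4.23e-29), each the largest of all 18417 genes. In these 2 comparisons, 8.23% and 28.6% of all genes were called, and 2 of the 10 members in each (MMP1 and TIMP2 in the first, MMP1 and MMP3 in the second). Smoke extract alone, the comparison that chose the family, gave 10.21, 10.55 and 10.33, against 6.11, 6.24 and 6.42 in untreated cells, a difference of 4.10. The other 9 members differed there by -0.11 to 0.12, with overlapping arrays, beside 16.1% of all genes called.

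No detection call came with the values, and 341 olfactory receptor genes, which lung cells are not expected to use, served as a yardstick for low signal. The 5th and the 95th percentile of their means were 3.05 and 6.06, and the highest mean was 6.94. Without smoke extract MMP1 ran from 5.80 to 6.42 over the 18 arrays at 24 h, inside the range of those genes, so the 24 h folds are at best lower bounds. With smoke extract the 9 arrays ran from 10.20 to 10.85, above all of them. At 2 h the 18 arrays without smoke extract ran from 6.67 to 7.29. That range takes in the highest olfactory receptor mean, so the 2 h folds can be lower bounds too. All 9 arrays with smoke extract lay above all 18 without it at 2 h and again at 24 h, as was so for 1.6% and 1.03% of all genes, and MMP1 was the only 1 of the 10 members among them. At 24 h this is a description, since it includes the arrays that chose the family.

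**Figure D1:**
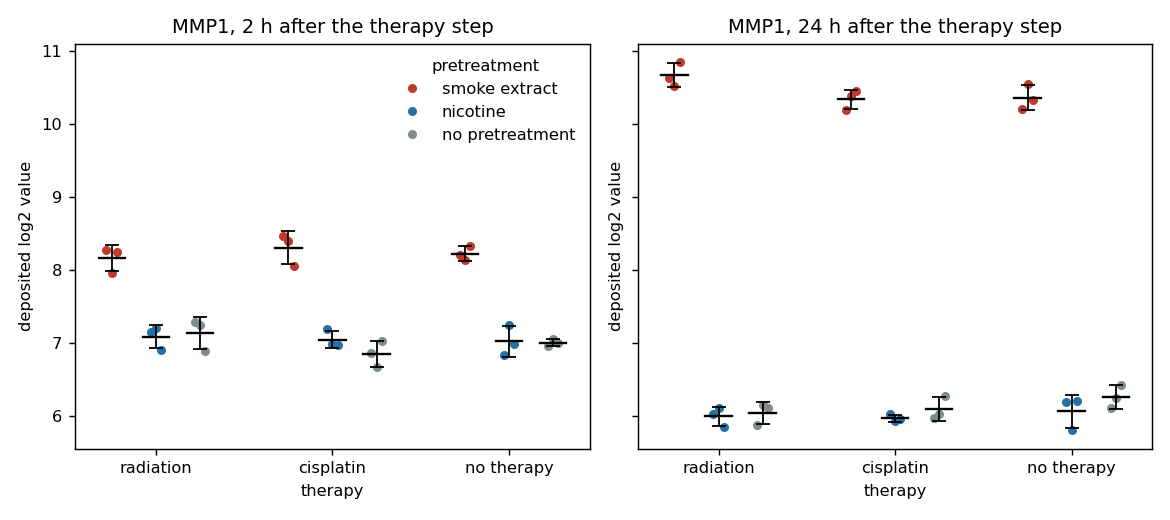
MMP1 on each array (deposited log2 value) by therapy along the x axis, with smoke extract, nicotine and no pretreatment from left to right within each therapy, at 2 h (left) and 24 h (right). Dots are arrays, wide lines group means and whiskers ± 1 SD (n = 3). With smoke extract the arrays lie between 7.96 and 8.47 at 2 h and between 10.20 and 10.85 at 24 h, while the others lie between 6.67 and 7.29 and between 5.80 and 6.42.

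MMP1 moved in opposite directions with time depending on smoke extract. In the 6 treatments without smoke extract the mean at 24 h lay 0.75 to 1.10 below that at 2 h, and in the 3 treatments with it the mean at 24 h lay 2.04 to 2.51 above. No treatment had overlapping arrays between the times. MMP1 alone, 0.00543% of all genes, was lower without overlap in all 6 and higher without overlap in all 3, a description that includes the arrays that chose the family. In untreated cells the log2 change of 24 h against 2 h was -0.75, given with no test because it uses such arrays, beside 1.92% of genes called. The smoke extract effect was larger at 24 h than at 2 h by 3.61 ± 0.18 in irradiated cells (adjusted p = 8.72e-20, 2.34% of genes called) and by 2.79 ± 0.18 in cisplatin-treated cells (adjusted p = 2.02e-15, 2.62% of genes called). Without therapy the same difference was 2.88, given with no test, beside 6.29% of genes called.

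Ranked by mean, the 18 groups formed 4 tiers of MMP1. The 3 groups with smoke extract at 24 h (means of 10.34 to 10.67) came first, then the 3 with smoke extract at 2 h (8.16 to 8.31), the 6 without it at 2 h (6.85 to 7.14) and the 6 without it at 24 h (5.97 to 6.26). Neighbouring groups within a tier had overlapping arrays, and the tiers did not overlap each other. The top group was radiation with smoke extract. The effect of smoke extract at 24 h was 0.52 larger in irradiated cells than in cells without therapy and 0.15 larger in cisplatin-treated cells than in cells without therapy. Both differences are given with no test because they use the arrays that chose the family, beside 2.57% and 0.152% of all genes called.

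Nicotine, at the nicotine concentration of the extract, gave no MMP1 call where MMP1 was tested. At 24 h MMP1 with nicotine was 6.02, 6.10 and 5.85 in irradiated cells, 6.02, 5.93 and 5.95 in cisplatin-treated cells, and 6.18, 5.80 and 6.20 without therapy, and in each therapy arm these overlapped the arrays without pretreatment. In the 5 comparisons of nicotine with no pretreatment that do not use the arrays that chose the family, MMP1 differed by -0.12 to 0.19, with 95% intervals that together spanned -0.38 to 0.45 and a smallest adjusted p of 0.469. Nicotine alone at 24 h gave -0.20, with no test. Set against nicotine directly, smoke extract gave MMP1 levels higher by 4.68 in irradiated cells (25.6-fold, adjusted p = 6.85e-31) and by 4.37 in cisplatin-treated cells (20.7-fold, adjusted p = 1.24e-29). Both were again the largest rises of all genes, and 8.71% and 5.19% of genes were called. Without therapy the difference was 4.30, given with no test because it uses the arrays that chose the family, beside 12.8% of genes called. In the 4 comparisons of each therapy that do not use those arrays, MMP1 differed by -0.07 to 0.14 with radiation (smallest adjusted p = 0.828) and by -0.15 to 0.08 with cisplatin (smallest adjusted p = 0.761). At 24 h the differences given with no test were -0.22 with radiation alone, 0.31 with radiation in cells with smoke extract, -0.17 with cisplatin alone and -0.02 with cisplatin in cells with smoke extract. Without smoke extract the 24 h levels lay inside the olfactory receptor range, where a lower level could not be seen.

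Member calls were also counted over the tested comparisons of a single agent with its control. These leave out smoke extract alone at 24 h, and the shares of all genes called are set beside the counts. Smoke extract gave 7 calls in 50 member tests (5 of them MMP1), radiation 3 in 58, nicotine 1 in 59 and cisplatin 0 in 58. Of all genes, smoke extract at 2 h gave 2.66%, 5.46% and 3.77% in irradiated, cisplatin-treated and otherwise untreated cells. At 24 h it gave 8.23% in irradiated and 28.6% in cisplatin-treated cells. For nicotine at 2 h no gene of all 18417 was called by limma in any arm (0%), with 286, 324 and 109 genes at an unadjusted p under 0.05 in irradiated, cisplatin-treated and otherwise untreated cells. Nicotine at 24 h gave 0.00543% of genes in irradiated cells, 17.8% in cisplatin-treated cells and 0.00543% without therapy. Radiation at 2 h gave 0.304%, 0.228% and 0.157% in cells with no pretreatment, nicotine and smoke extract. Radiation at 24 h gave 21%, 15.3% and 14.2% in the same order. For cisplatin at 24 h, 3.8%, 0.451% and 0.0814% of all genes were called in cells with no pretreatment, nicotine and smoke extract, and at 2 h 0.00543%, 0% and 0%.

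**Figure D2:**
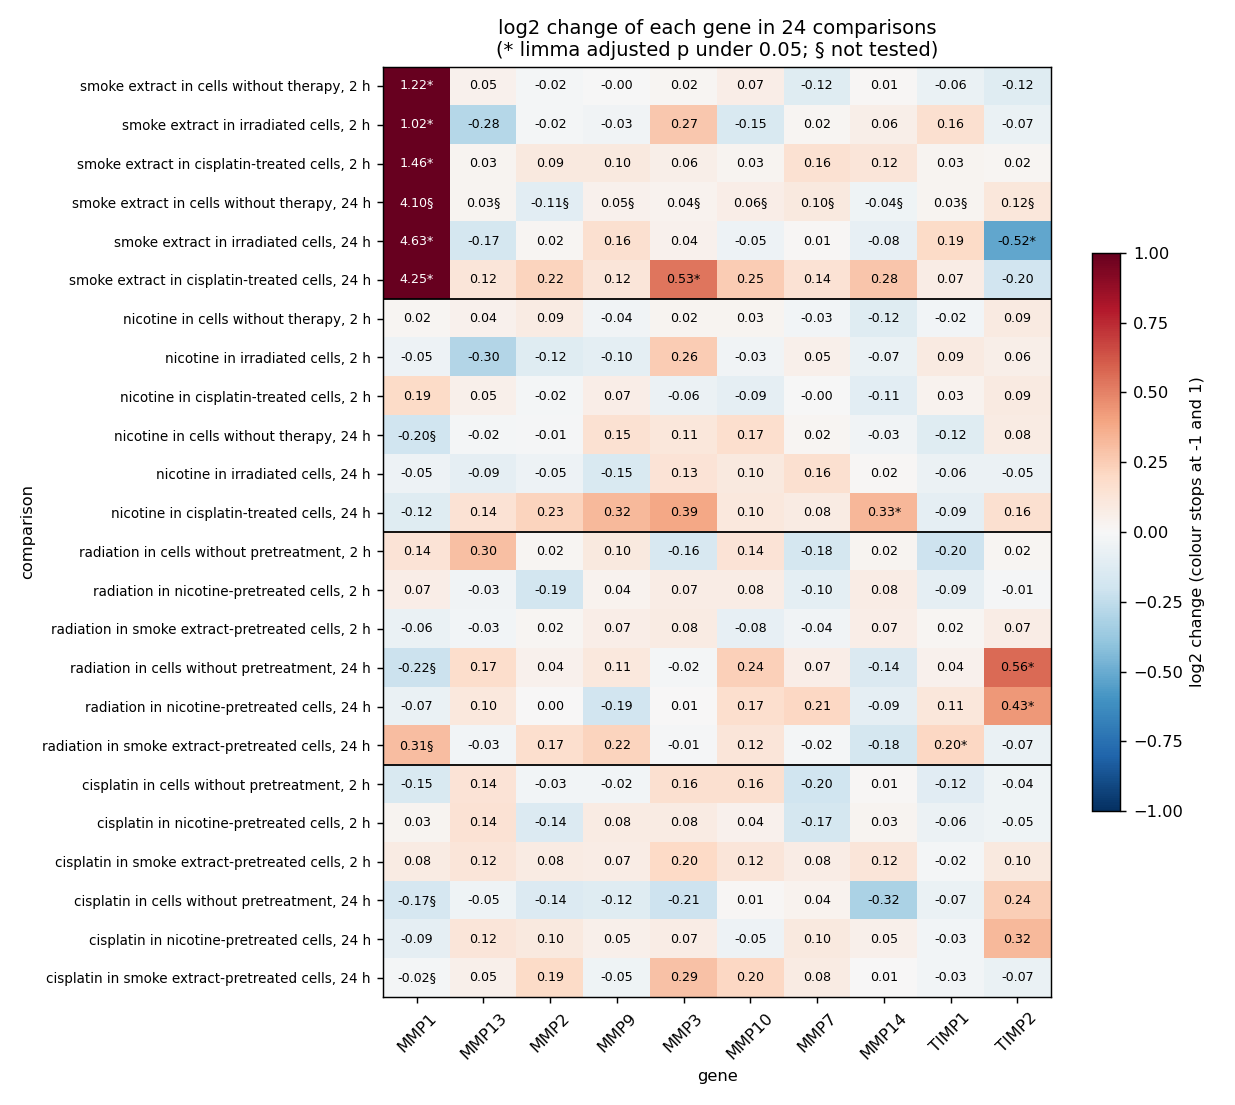
The log2 change of each of the 10 genes (columns) in 24 comparisons of 1 agent with its control (rows), with the value printed in each cell, colour from -1 (blue) to 1 (red), stars where the limma adjusted p was under 0.05, and § where no test was made. MMP1 carries 5 stars in the smoke extract rows (changes of 1.02 to 4.63), and TIMP2 carries 1 there (-0.52) and 2 in the radiation rows (0.56 and 0.43).

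MMP13, the other collagenase among the members, did not pass a test in any comparison. The collagenase MMP8 was measured too, but it is not a member and is given with the cluster below. MMP13 ran from 3.88 to 4.70 over 54 arrays and its 18 group means spanned 0.31. Of the olfactory receptor genes 29% had a lower mean, so by this yardstick its level could not be separated from background.

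Neither gelatinase passed a test. MMP2 ran from 5.46 to 6.00 over 54 arrays and its group means spanned 0.26. MMP9 ran from 5.16 to 5.96 and its group means spanned 0.39. Their means were above those of 92.1% (MMP2) and 87.4% (MMP9) of the olfactory receptor genes. The smallest adjusted p of MMP9, 0.0627, came with nicotine in cisplatin-treated cells at 24 h, where its mean was 5.73, against 5.41 with cisplatin alone.

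Of the stromelysins, MMP3 passed 1 test and MMP10 none. At 24 h MMP3 was 5.47, 5.14 and 5.48 with cisplatin and smoke extract, against 4.64, 5.16 and 4.67 with cisplatin alone, so 1 array of the cisplatin group lay within the range of the group with smoke extract. It rose by 0.53 ± 0.17 (adjusted p = 0.0164). Leaving out 1 array ended the call in 4 of 6 cases (cisplatin replicate 1 or 3, or cisplatin with smoke extract replicate 1 or 3, adjusted p of 0.0643 to 0.121), and so did a fit of only the compared groups (adjusted p = 0.0523). MMP10 ran from 4.92 to 5.71 over all arrays, with group means spanning 0.40.

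Signal of olfactory receptor genes moved with this MMP3 difference. The mean of the olfactory receptor genes was 4.84, 4.71 and 4.84 on the arrays with cisplatin and smoke extract, against 4.55, 4.68 and 4.43 with cisplatin alone. With that mean as a covariate the MMP3 change was 0.14 (adjusted p = 0.544). In the same comparison 6 of 10 fibroblast markers, 3 of 9 leukocyte markers and 1 of 8 endothelial markers were called higher. The mean of the fibroblast list ran from 5.86 to 5.95 with smoke extract, against 5.66 to 5.77 with cisplatin alone. That of the leukocyte list ran from 5.76 to 5.97 with smoke extract, against 5.62 to 5.78 with cisplatin alone, and that of the endothelial list from 5.60 to 5.78 with smoke extract, against 5.30 to 5.61 with cisplatin alone. Over all arrays, 5 of 10, 3 of 9 and 1 of 8 of these markers lay above the 95th percentile of the olfactory receptor genes. Their part in the MMP3 result was not tested.

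Matrilysin, MMP7, did not respond past the threshold to any agent. It ran from 3.53 to 4.27 over all arrays with group means spanning 0.34 and passed no test, and only 18.8% of olfactory receptor genes had a lower mean.

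MMP14, the membrane-type enzyme, passed 1 test. Its 54 arrays ran from 5.85 to 6.54, inside the olfactory receptor range, and 96.5% of olfactory receptor genes had a lower mean. At 24 h MMP14 was 6.24, 6.25 and 6.35 with cisplatin and nicotine, against 6.00, 5.92 and 5.92 with cisplatin alone, and the arrays did not overlap. It rose by 0.33 ± 0.11 (adjusted p = 0.0385) in a comparison in which 17.8% of all genes were called. This comparison shares its cisplatin arrays with that of MMP3. The call was lost in 5 of 6 cases when 1 array was left out (all but cisplatin replicate 2, adjusted p of 0.0589 to 0.189), after quantile normalization (0.23, adjusted p = 0.112) and in a fit limited to those groups (adjusted p = 0.0589). The olfactory receptor mean was 4.79, 4.77 and 4.74 with cisplatin and nicotine, against the 4.43 to 4.68 of cisplatin alone, and with it as a covariate the change was 0.13 (adjusted p = 0.538). There 3 of 10 fibroblast, 2 of 9 leukocyte and 1 of 8 endothelial markers were called higher. The list means ran from 5.81 to 5.93 (fibroblast), from 5.84 to 5.87 (leukocyte) and from 5.61 to 5.73 (endothelial) with nicotine, against the ranges of cisplatin alone given for MMP3. The part of these markers in the MMP14 result was not tested either.

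**Figure D3:**
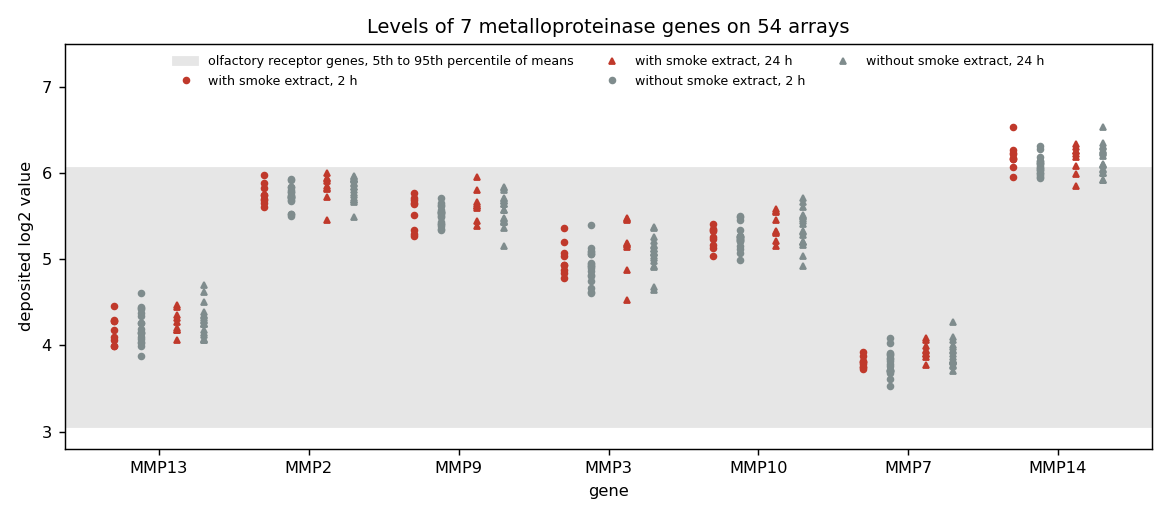
The 7 metalloproteinase genes other than MMP1 (x axis) on 54 arrays (y axis, deposited log2 value), with arrays with smoke extract in red and the others in grey, and circles for 2 h and triangles for 24 h. The grey band, from 3.05 to 6.06, runs between the 5th and the 95th percentile of olfactory receptor gene means, and 6 of the 7 genes lie inside it, with MMP14 (5.85 to 6.54) at its upper edge.

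The 2 inhibitors were well above background. TIMP2, which blocks metalloproteinases and also bridges MMP2 to MMP14, followed time and radiation. It was higher at 24 h than at 2 h in all 9 treatments, by 0.37 to 0.93, and no treatment had overlapping arrays between the times. Across all genes 0.842% showed that pattern, and no other member did. In untreated cells TIMP2 was 8.96, 8.91 and 9.15 at 24 h, against 8.62, 8.68 and 8.56 at 2 h, and this difference of 0.38 alone did not pass the test (adjusted p = 0.0628).

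TIMP2 was higher after radiation at 24 h in cells without smoke extract. The values were 9.69, 9.78 and 9.24 with radiation alone, against 8.96, 8.91 and 9.15 in untreated cells, with no overlap. TIMP2 rose by 0.56 ± 0.11 (1.48-fold, adjusted p = 0.000172), and 21% of all genes were called in that comparison. It was 9.27, 9.65 and 9.63 with radiation and nicotine, against 8.84, 8.96 and 9.45 with nicotine alone, where 1 nicotine array lay inside the irradiated range. That rise of 0.43 ± 0.11 (1.35-fold, adjusted p = 0.00538, 15.3% of genes called) was lost without nicotine replicate 1 (0.31, adjusted p = 0.0998) and in a fit limited to those groups (adjusted p = 0.151). At 2 h radiation moved TIMP2 by -0.01 to 0.07 in the 3 arms. Its effect in cells without pretreatment was larger at 24 h than at 2 h by 0.55 ± 0.16 (adjusted p = 0.0163, 13% of genes called), a call lost without untreated 24 h replicate 2 or without radiation 24 h replicate 1 or 2 (adjusted p of 0.0509 to 0.0895).

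With smoke extract the rise after radiation was not seen. TIMP2 was 9.21, 9.12 and 8.83 with radiation and smoke extract, against 9.01, 9.24 and 9.12 with smoke extract alone, a difference of -0.07 with a 95% interval of -0.30 to 0.16 (adjusted p = 0.785). Against the 9.69, 9.78 and 9.24 of radiation alone, the arrays with radiation and smoke extract were all lower, by 0.52 ± 0.11 in the mean (log2 change of -0.52, adjusted p = 0.000986), and this call was kept whichever array was left out (-0.68 to -0.41) but not when the fit held only the compared groups (adjusted p = 0.115). Against radiation with nicotine TIMP2 was lower too, with a log2 change of -0.46 (adjusted p = 0.00394), a call lost without radiation with smoke extract replicate 3 (-0.35, adjusted p = 0.0541) and in a fit limited to those groups (adjusted p = 0.117). The smoke extract effect on TIMP2 was lower in irradiated cells than in cells without therapy by a log2 difference of -0.63 ± 0.16 (adjusted p = 0.0211, 2.57% of genes called), a difference that also uses the arrays on which MMP1 chose the family. That call was lost without untreated 24 h replicate 1 or 2, without radiation 24 h replicate 1 or 2, and without radiation with smoke extract 24 h replicate 3 (adjusted p of 0.0569 to 0.122), and in a fit limited to those groups (adjusted p = 0.14).

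TIMP2 passed no test with cisplatin. Its values were 9.13, 9.46 and 9.17 with cisplatin alone, 0.24 above untreated cells (adjusted p = 0.224), and 9.34, 9.41 and 9.47 with cisplatin and nicotine, 0.32 above nicotine alone (adjusted p = 0.164). With cisplatin and smoke extract they were 9.02, 9.11 and 9.03, which was 0.20 below cisplatin alone (log2 change of -0.20, adjusted p = 0.179).

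TIMP1, a secreted inhibitor of most metalloproteinases, varied little, with group means from 12.01 to 12.46. Its highest group was radiation with smoke extract at 24 h, at 12.48, 12.44 and 12.47, against 12.27, 12.26 and 12.24 with smoke extract alone. These arrays did not overlap, and the rise with radiation was 0.20 ± 0.06 (adjusted p = 0.0256, 14.2% of genes called). The same group lay 0.25 above radiation with nicotine (adjusted p = 0.00733) and 0.23 above cisplatin with smoke extract (adjusted p = 0.013, 11.1% of genes called). It lay 0.19 above radiation alone (12.28, 12.28 and 12.25), which did not pass the test (adjusted p = 0.0591). Each of these small calls could be lost when 1 array was left out. The first was lost in 5 of 6 cases (adjusted p of 0.0517 to 0.0754), while its change stayed at 0.19 to 0.21. The second was lost without radiation with nicotine replicate 1 (adjusted p = 0.0626), and the third without cisplatin with smoke extract replicate 3 (adjusted p = 0.142). In a fit limited to the groups set against each other all 3 were lost (adjusted p = 0.116, 0.182 and 0.139).

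**Figure D4:**
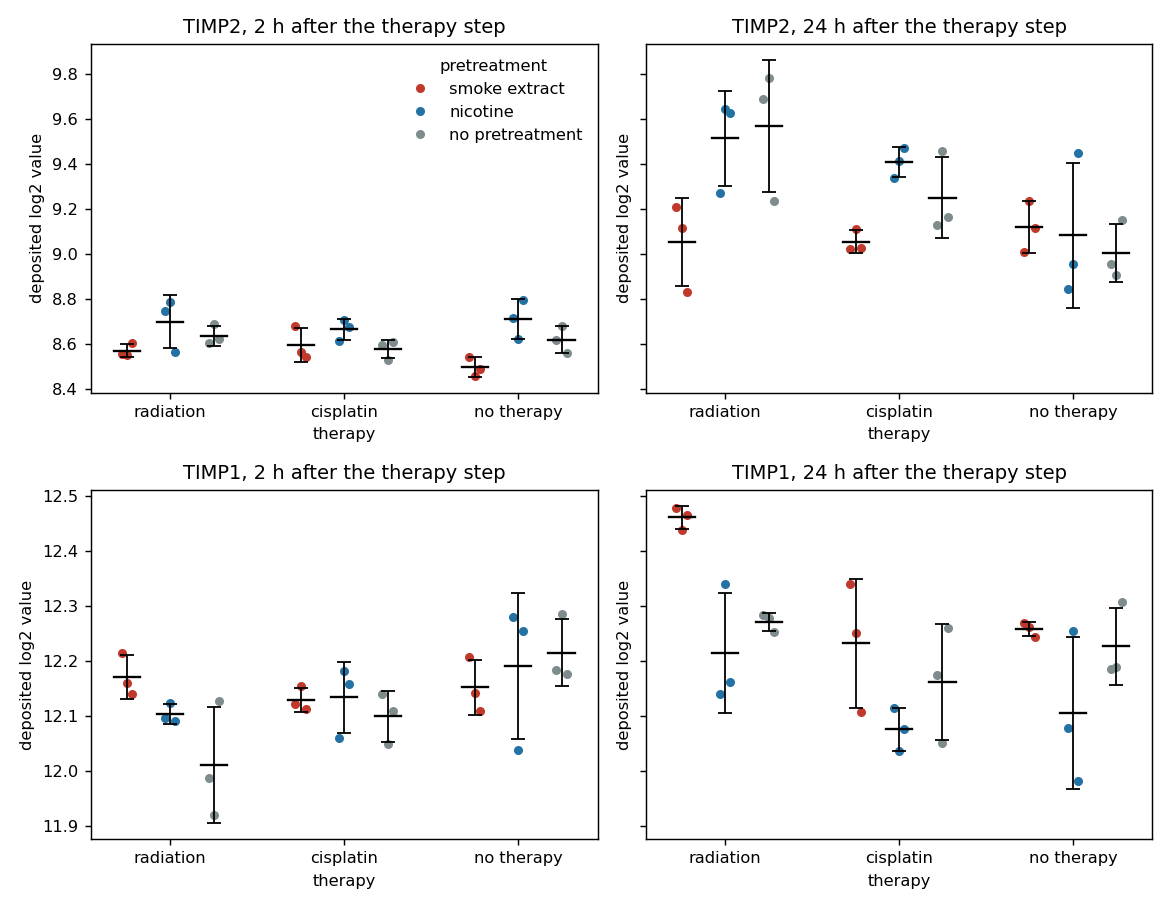
TIMP2 (top) and TIMP1 (bottom) on each array (deposited log2 value) by therapy along the x axis, with smoke extract, nicotine and no pretreatment from left to right within each therapy, at 2 h (left) and 24 h (right); the 2 genes have different y scales. Dots are arrays, wide lines means and whiskers ± 1 SD (n = 3). TIMP2 at 24 h averages 9.57 with radiation alone and 9.05 with radiation and smoke extract, and TIMP1 averages 12.46 with radiation and smoke extract at 24 h.

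Within the cluster on chromosome 11 the 24 h smoke extract rise in irradiated cells was called for MMP1 and for no other gene. It was 1 call among 9 cluster genes, beside 8.23% of all genes called, and its neighbours MMP10 and MMP3 differed by -0.05 and 0.04 (adjusted p = 0.938 and 0.965). In cisplatin-treated cells, where 28.6% of all genes were called and the olfactory receptor mean was higher too, 3 of the 9 were called: MMP1 at 4.25, MMP8 at 0.66 (neutrophil collagenase, 3.68 with smoke extract, against 3.02 with cisplatin alone, adjusted p = 0.00222) and MMP3 at 0.53. The MMP8 and MMP3 levels were inside the olfactory receptor range. The nearest measured genes on either side, BIRC2 and TMEM123 before MMP7 and DCUN1D5 and DYNC2H1 after MMP13, were not called in either comparison.

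**Figure D5:**
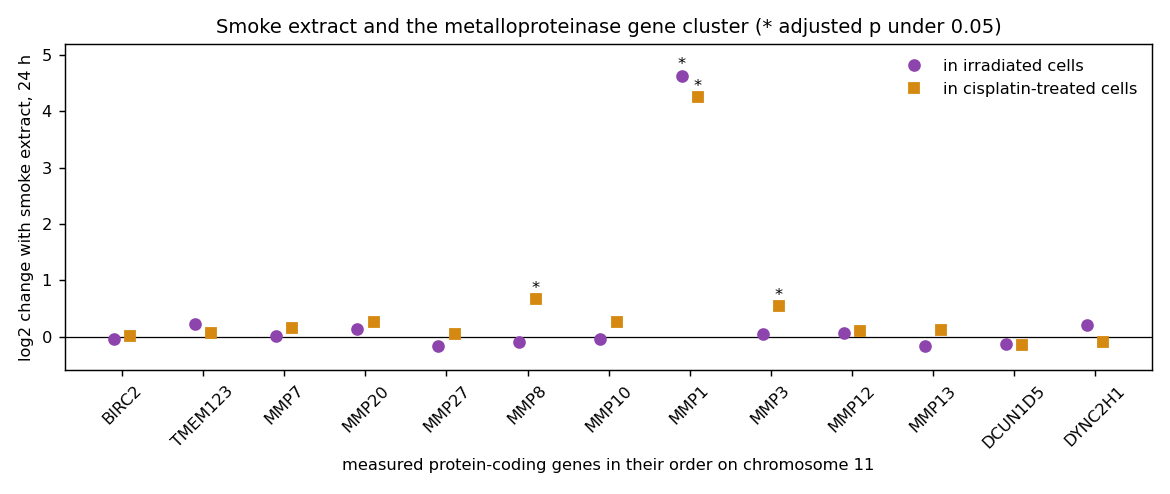
The log2 change with smoke extract at 24 h (y axis) for 13 protein-coding genes in their order on chromosome 11 (x axis, not to scale), in irradiated cells (circles) and cisplatin-treated cells (squares), with a star where the limma adjusted p was under 0.05. MMP1 stands at 4.63 and 4.25, and each other gene lies between -0.17 and 0.66.

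Other genes of the pathway were counted in lists chosen with earlier results known, so no list is independent evidence of a direction. Their counts stand beside those of all genes: at 2 h smoke extract gave 1.75% of all genes called higher and 0.907% lower in irradiated cells, 3.58% and 1.87% in cisplatin-treated cells, and 1.74% and 2.04% without therapy. At 24 h it gave 2.55% higher and 5.68% lower in irradiated cells, and 14.6% and 14.1% in cisplatin-treated cells. In the last comparison the olfactory receptor mean and markers of other cell types were higher with smoke extract, as given for MMP3, and their part in the list counts was not tested. At 2 h, of 7 genes of plasminogen activation, PLAU and PLAT, the 2 activators that turn plasminogen into plasmin, were called higher with smoke extract in all 3 arms and none was called lower. PLAU averaged 8.28 with radiation and smoke extract, against 7.85 with radiation alone (0.42, adjusted p = 0.00237), and 8.01 with cisplatin and smoke extract, against 7.46 with cisplatin alone (0.55, adjusted p = 3.30e-05). At 24 h PLAT stayed higher, at 9.40 with radiation and smoke extract, against 8.71 with radiation alone (0.69, adjusted p = 9.43e-09). PLAUR, the receptor that holds PLAU at the cell surface, was lower, at 8.29 with radiation and smoke extract, against 8.93 with radiation alone (-0.64, adjusted p = 6.54e-08). No other gene of the list was called there. In cisplatin-treated cells PLAT and PLG were called higher and PLAUR and SERPINB5 lower, with PLG inside the olfactory receptor range. PLAU was not called in either arm at 24 h. Its smoke extract effect in cisplatin-treated cells was lower at 24 h than at 2 h (log2 difference of -0.53, adjusted p = 0.0155).

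Of 6 convertases and surface inducers, 1 was called higher and 3 lower with smoke extract at 24 h in irradiated cells, and 1 and 3 in cisplatin-treated cells. FURIN, the convertase that activates membrane-type metalloproteinases such as MMP14, averaged 7.76 with radiation and smoke extract, against 8.72 with radiation alone (-0.95, adjusted p = 3.11e-12). In cisplatin-treated cells FURIN averaged 7.75 with smoke extract, against 8.37 without it (-0.62, adjusted p = 5.36e-07). CD44, a surface receptor that can hold MMP9, was the 1 called higher in each.

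Cytokines and growth factors known to induce metalloproteinases held the largest changes. Of 13 measured, 5 were called higher and 1 lower with smoke extract in irradiated cells at 24 h, and 7 and 1 in cisplatin-treated cells. Of these 7, IL1B, OSM and EREG, named here after their values were seen, had levels inside the olfactory receptor range in cisplatin-treated cells. The interleukin IL1A averaged 9.57 with radiation and smoke extract, against 6.52 with radiation alone (3.05, adjusted p = 5.20e-20), and the epidermal growth factor receptor ligand EPGN averaged 10.31 with radiation and smoke extract, against 7.63 with radiation alone (2.69, adjusted p = 9.13e-16). IL1B rose by 1.94 (adjusted p = 2.78e-15), to 7.52 with radiation and smoke extract, against 5.58 with radiation alone, the second a level within the olfactory receptor range. At 2 h IL1A already rose by 1.83 to 1.87 in the 3 arms, while IL6 was lower, with log2 changes of -1.43 to -1.29. Without smoke extract IL1A averaged 6.52 with radiation alone and 6.39 with cisplatin alone at 24 h, and 6.27 to 6.54 in the 3 arms at 2 h. These levels lay inside the olfactory receptor range, so the IL1A changes are at best lower bounds.

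The list of AP-1 and ETS transcription factors, which bind metalloproteinase promoters, also held RUNX2, a gene of neither family. With smoke extract at 2 h it gave 4 calls higher and 1 lower of 16 in irradiated cells, 4 and 1 in cisplatin-treated cells, and 4 and 2 without therapy. FOSL2, FOSL1 and ETS1 were called higher in each arm, by 0.49 to 0.53 for FOSL2, 0.40 to 0.41 for FOSL1 and 0.42 to 0.46 for ETS1. The ETS factor ETV1, named here after its values were seen, was called lower in each arm. Its log2 changes were -0.30 in irradiated cells, -0.45 in cisplatin-treated cells and -0.32 without therapy. At 24 h the list gave 1 call higher and 2 lower with smoke extract in irradiated cells, and 7 and 3 in cisplatin-treated cells. Those 7 include RUNX2 (6.25 with smoke extract, against 5.76 with cisplatin alone) and ATF3 (6.15, against 5.78). Both, named here after their values were seen, lay inside the olfactory receptor range. ELF3, an epithelial ETS factor, rose by 0.87 in irradiated cells (adjusted p = 4.15e-08) and by 0.72 in cisplatin-treated cells (adjusted p = 4.20e-06). Its levels, 6.39 with radiation and smoke extract, against 5.52 with radiation alone, and 6.26 with cisplatin and smoke extract, against 5.54 with cisplatin alone, lay inside the olfactory receptor range, so these changes are at best lower bounds.

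Of 14 other metalloproteinase genes, MMP17, a membrane-type enzyme, was the 1 called with smoke extract at 24 h in irradiated cells (8.04 with radiation and smoke extract, against 7.60 with radiation alone, 0.44, adjusted p = 0.000118). In cisplatin-treated cells 3 were called higher (MMP8, MMP26 and MMP17) and MMP16 lower, and MMP8 and MMP26 lay inside the olfactory receptor range (MMP26 at 4.11 with smoke extract, against 3.59 with cisplatin alone). TIMP3, an inhibitor bound to the matrix, rose with smoke extract by 0.48 in irradiated cells (adjusted p = 0.0149) and by 0.85 in cisplatin-treated cells (adjusted p = 9.20e-06), 1 of 4 and, with A2M, 2 of 4 other inhibitors. TIMP3 averaged 6.45 with radiation and smoke extract, against 5.97 with radiation alone, and 6.51 with cisplatin and smoke extract, against 5.66 with cisplatin alone. These levels lay inside the olfactory receptor range too. Of 14 ADAM and ADAMTS genes, which code for related proteases, 3 were called higher and 1 lower in irradiated cells and 3 and 3 in cisplatin-treated cells. ADAMTS9 was 7.56 with radiation and smoke extract, against 6.79 with radiation alone (0.77, adjusted p = 5.94e-08).

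After radiation alone at 24 h, where 10% of all genes were called higher and 11% lower, the same lists were counted. RECK, a membrane-anchored inhibitor of metalloproteinases, was the 1 of 4 inhibitors beside TIMP1 and TIMP2 that rose (7.69 with radiation, against 7.22 in untreated cells, 0.47, adjusted p = 1.92e-05). PLAU rose by 0.65 (adjusted p = 5.07e-07), FURIN by 0.48 (adjusted p = 3.03e-05) and SERPINE2, an inhibitor of plasminogen activators, by 0.46 (adjusted p = 4.12e-08). None of the 14 other metalloproteinases was called. Over the whole lists, 2 of 7 plasminogen activation genes and 3 of 14 ADAM and ADAMTS genes were called higher and none lower. Of 6 convertases and surface inducers 2 were called higher and 1 lower (BSG, which induces metalloproteinases in neighbouring cells, 11.15 with radiation, against 11.38 in untreated cells, -0.23, adjusted p = 0.0499). Of 13 cytokines and growth factors 1 was called higher (TGFB2, 0.44, adjusted p = 7.38e-07) and 2 lower. EPGN averaged 7.63 with radiation, against 8.36 in untreated cells (-0.73, adjusted p = 0.00255), and the chemokine CXCL8 averaged 10.28 with radiation, against 10.84 in untreated cells (-0.56, adjusted p = 0.00105). Of the 16 genes in the list of AP-1 and ETS factors 3 were called higher and ETS2 lower (-0.32, adjusted p = 0.00614). Among the genes called higher, ADAMTS6, ADAM28 and ATF3 lay inside the olfactory receptor range. They averaged 6.42, 4.69 and 6.20 with radiation, against 6.04, 4.36 and 5.89 in untreated cells.

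Across the 18 group means, the genes whose pattern was most like that of MMP1 by Pearson correlation, among 1299 genes whose group means spanned at least 1 log2 unit, were TESC (0.956), IL1A (0.943), FGF13 (0.934), SCUBE1 (0.933) and CYP39A1 (0.933). Those most like TIMP2 were VEGFC (0.970), RBPMS (0.967), ZNF827 (0.965), COBL (0.964) and WWC2 (0.961). These are descriptions over 18 groups that share time and treatment.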

How the data were processed

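Expression was measured on 54 one-colour whole-transcript Affymetrix arrays, 1 per culture, and the values were used as the authors deposited them. The deposited table does not name its scale; log2 is inferred from its lowest and highest value (0.89 and 13.81) and from the medians of the arrays (6.43 to 6.63), and the folds depend on that. Per the submitters' processing notes, the tool named for the authors' log2 values is Affymetrix Power Tools 1.15.0. How the signal was summarized, corrected or normalized is not given in the sources used here. Array signal has no counted depth, and the number of arrays limits the precision.

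Of its 33297 rows, 19460 had 1 gene symbol in the platform annotation, 1754 several and 12083 none. The row with the highest mean stood for each of 18417 genes. The 18 groups entered 1 limma 3.58.1 model of all 54 arrays together (R 4.3.3, data.table, version 1.17.8, 36 residual degrees of freedom, eBayes with trend). Two-sided p-values of 37 comparisons were adjusted by Benjamini-Hochberg over all 18417 genes, with calls at an adjusted p under 0.05. The script was tested on simulated data. Alternatives were quantile normalization, the olfactory receptor mean as a covariate, a filter on dim genes, all rows, eBayes without trend, smaller fits, a replicate block and leaving out arrays. Group labels came from the sample titles. Errors are SD for levels (n = 3) and SE for changes, and intervals are 95%.

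The members, lists and tests were chosen with earlier results of these data known. From each list at most 4 called genes, those with the largest change, could be named per comparison, and 5 genes were listed as most like MMP1 and TIMP2. Listed genes without a row of 1 symbol were not analysed here.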

Additional observations from a re-analysis of the deposited data

Results flagged for a closer look

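For 4 results an effect differed between times or between therapies by a test of the difference itself. The smoke extract effect on MMP1 was larger at 24 h than at 2 h by a log2 difference of 3.61 in irradiated cells and of 2.79 in cisplatin-treated cells. The smoke extract effect on TIMP2 at 24 h was lower in irradiated cells than in cells without therapy, with a log2 difference of -0.63. The radiation effect on TIMP2 in cells without pretreatment was larger at 24 h than at 2 h by 0.55. Both TIMP2 differences lost their call when single arrays were left out, as given with them above, and neither MMP1 difference did.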

How the results depend on the processing

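None of 24 member changes followed changed sign under any alternative; the listed genes were not refitted. Every tested MMP1 change kept its call (3.51 to 3.75 for the irradiated and 2.58 to 2.93 for the cisplatin 24 h minus 2 h effect). Counts of members past the threshold, which leave out MMP1 where it was not tested, moved as follows, with smaller moves first. Under settings other than leaving out 1 array, smoke extract reached 3 in irradiated cells and 3 in cisplatin-treated cells. Smoke extract against nicotine in irradiated cells reached 4, and ran from 2 to 3 when 1 array was left out. The larger moves of these counts follow. After quantile normalization they were 0 for nicotine in cisplatin-treated cells at 24 h, 1 for radiation against cisplatin without pretreatment, 1 for smoke extract against nicotine without therapy and for untreated cells over time, and 2 for radiation against cisplatin with smoke extract and the radiation effect over time. With the olfactory receptor mean as a covariate they were 0 for nicotine and 1 for smoke extract in cisplatin-treated cells, and 2 each for radiation alone, radiation with nicotine, radiation with smoke extract, radiation against cisplatin with smoke extract and smoke extract against nicotine with cisplatin. With only genes above the median level, which leaves out the dim members, they were 0 for nicotine and 1 for smoke extract in cisplatin-treated cells, 1 for radiation against cisplatin without pretreatment and for untreated cells over time, and 2 for the radiation effect over time and for smoke extract against nicotine with cisplatin. With all rows tested, nicotine in cisplatin-treated cells gave 0. In a fit limited to the groups set against each other, which leaves fewer residual degrees of freedom, 0 remained for nicotine in cisplatin-treated cells, radiation with nicotine, radiation with smoke extract, radiation against cisplatin with smoke extract and the smoke extract effect in irradiated minus other cells; 1 for smoke extract in irradiated cells, smoke extract in cisplatin-treated cells, smoke extract against nicotine in irradiated cells and untreated cells over time; and 2 for smoke extract against nicotine with cisplatin. An alternative added after seeing the data left out 4 arrays whose olfactory receptor mean lay over 0.2 from their group; it gave 3 for nicotine in cisplatin-treated cells and for the smoke extract effect over time with cisplatin, 1 for cisplatin alone, radiation against cisplatin without pretreatment, untreated cells over time and smoke extract against nicotine without therapy, 2 for the radiation effect over time and smoke extract against nicotine with cisplatin, and 0 for the smoke extract effect in irradiated minus other cells (TIMP2 -0.52, adjusted p = 0.0601). Leaving out 1 array at a time, counts ran from 0 to 4 for nicotine in cisplatin-treated cells, from 1 to 3 for smoke extract in cisplatin-treated cells, from 0 to 2 for radiation against cisplatin without pretreatment, the radiation effect over time and radiation with nicotine, from 1 to 2 for radiation alone and the smoke extract effect over time in irradiated cells, and from 0 to 1 for radiation with smoke extract, radiation against cisplatin with smoke extract, cisplatin with nicotine, smoke extract against nicotine without therapy and the smoke extract effect in irradiated minus other cells. Replicate numbers were not treated as pairs in the main model, and whether they pair the samples was not tested. The mean correlation of deviations was 0.018 within a number and -0.0095 between numbers, and 23 of 54 arrays correlated best with their own number. With the numbers as a replicate block no call changed (TIMP2, smoke extract effect in irradiated minus other cells, -0.63, adjusted p = 0.0219). Array weights were not run, because their estimation did not converge. Signal over background limits MMP2, MMP3, MMP7, MMP9, MMP10, MMP13 and MMP14. It also limits MMP1 without smoke extract, at 24 h and in part at 2 h.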
